A study of Mus musculus with 39 samples.

Results

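The 10 genes studied here are of natural killer cells and cytotoxic lymphocytes, followed across the diets and time labels of a brown fat series. The genes were Gzma, Gzmb, Gzmk, Prf1, Nkg7, Klrb1c, Klrd1, Ncr1, Eomes and Tbx21, chosen by name as 10 of the 29411 gene names in the series table, where 12 of 40628 probes carry them.

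Natural killer cells and CD8 T cells kill target cells by releasing granules. Perforin opens the target membrane and granzymes, a family of serine proteases, enter and start cell death. The T-box factors Tbx21 (T-bet) and Eomes direct the development of these lymphocytes and switch on many of the other genes named here. In fat such lymphocytes lie in the stromal vascular fraction, the cells left when the fat cells are removed, and they are a known source of interferon gamma.

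The animals were C57BL/6J mice divided into diet groups after weaning, with no transgene or deletion named. LFC mice received the low fat diet and HFC mice the high fat diet rich in sucrose. HF5, HF20 and HF75 mice received the HFC diet with 5, 20 or 75 µg of KAL-1, a plant formulation of undescribed composition. There were 10 LFC arrays, at Day 1, 6, 10 and 14 and at Week 0, 3, 9, 12, 15 and 18. The 11 HFC arrays covered those labels plus Week 6, and the 6 arrays of each KAL-1 dose covered Week 3 to Week 18. Each array held 1 diet at 1 time label, so no diet was repeated under a label and the spread used in every test is the spread over time labels. The sources used here do not say whether the RNA of several animals was pooled on an array. In bulk RNA, fewer cells of a type and less RNA per cell cannot be told apart.

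The series is listed as infiltrating macrophages of brown fat, while the source names of the samples read brown SVCs (stromal vascular cells). Macrophage markers were present, with Emr1, Csf1r and C1qb well above background on all 39 arrays, but so were the brown adipocyte marker Ucp1, the adipocyte marker Adipoq and the neutrophil marker S100a8. Of the T cell markers read, only Thy1 was well above background on all 39. The others were so on 11 (Cd4 and Cd28) to 38 arrays (Cd5). The samples are therefore treated as mixed cells. In 9 array titles BA or BAT is written unbroken, with no explanation in the labels. The other 30 titles lack it in that form, but most of them hold B-A or B_A, with a mark between the letters. These 9 titled arrays stand apart in what follows. Brightness varied, with a 75th percentile between 18.1 (HF20 Week 9) and 3974 (HF20 Week 15) intensity units. On HF20 Week 15 the scanner software marked 71.4% of spots as outliers, and 7 of the 10 genes have no value there. It marked 18.6% on HF5 Week 12 and 11.1% on HFC Week 12, and less than 10% on every other array.

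The starts of the genes are shown for 3 of the genes whose levels were most alike over the arrays, since their levels moved together. RefSeq promoter windows of build GRCm38.p6, 250 bases before to 50 bases after the start, were found for 9 of the 10 genes, and Klrd1 had none. Capitals mark the T-box core AGGTGT and the RUNX core TGTGGT, each on either strand.
Gzma, chr13:113100932-113101231, minus strand: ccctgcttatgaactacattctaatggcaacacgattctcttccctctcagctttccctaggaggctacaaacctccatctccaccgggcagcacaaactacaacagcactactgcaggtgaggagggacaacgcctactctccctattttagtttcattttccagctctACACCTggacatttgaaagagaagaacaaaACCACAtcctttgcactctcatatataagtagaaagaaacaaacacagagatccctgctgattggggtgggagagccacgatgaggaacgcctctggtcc
Gzmb, chr14:56262285-56262584, minus strand: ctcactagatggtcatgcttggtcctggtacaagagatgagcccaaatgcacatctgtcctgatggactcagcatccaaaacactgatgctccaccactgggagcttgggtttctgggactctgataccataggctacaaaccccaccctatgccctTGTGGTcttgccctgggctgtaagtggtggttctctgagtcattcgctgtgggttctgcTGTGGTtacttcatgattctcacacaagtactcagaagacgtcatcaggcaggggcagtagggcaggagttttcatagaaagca
Nkg7, chr7:43436888-43437187, plus strand: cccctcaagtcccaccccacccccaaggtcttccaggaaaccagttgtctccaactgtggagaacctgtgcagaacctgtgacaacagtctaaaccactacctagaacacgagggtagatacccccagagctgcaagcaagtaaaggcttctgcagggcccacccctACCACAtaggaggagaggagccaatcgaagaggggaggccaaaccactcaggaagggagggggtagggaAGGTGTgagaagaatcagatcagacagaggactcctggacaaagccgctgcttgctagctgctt
The RUNX core stood in 7 of the 10 windows of these genes (Ncr1 has 2 windows that overlap) and in 16.8% of all 32851 windows, and the T-box core in 4 of 10 and in 13.7%. The TATA letters TATAAA were in none of the 10 windows and in 13.6% of all windows. Both cores were present in Gzma, Prf1 and Nkg7. A match is a run of letters and not a measured binding site.

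Levels are given as log2 of the processed signal minus the 75th percentile of the array, so 0 is the level of the probe at that percentile, and levels of different genes are not set against each other. Well above background is the mark the scanner software gives a spot. Counts of this mark are over arrays with a value.

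Among the granule genes, Gzma (granzyme A, a tryptase) was well above background on 35 of 39 arrays. Its lowest value was -5.64 (HF5 Week 15), its median -1.02 and its highest 2.80 (HFC Day 6). In LFC it ran from -4.84 at Week 12 to 0.01 at Week 0 with a median of -0.96, and in HFC from -5.33 at Week 9 to 2.80 at Day 6 with a median of -0.52. The medians of HF5, HF20 and HF75 were -3.13, -2.18 and -0.18, and the ranges of all 5 diets overlapped. The highest values belonged to HFC Day 6, with 2.80, and HFC Day 10, with 1.69.

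Gzmb (granzyme B, which cleaves after aspartate and activates caspases) was well above background on 32 of 38 arrays. It ranged from -7.84 at HFC Week 9 to 1.79 at HFC Day 6, and the next highest value was 1.65 at HF20 Week 9, the dimmest array. Its group means were -1.84 ± 1.44 in LFC (SD, n = 10), -1.66 ± 2.72 in HFC (n = 11), -2.92 ± 2.25 in HF5 (n = 6), -2.42 ± 2.67 in HF20 (n = 5) and -1.93 ± 2.14 in HF75 (n = 6). The SD in each diet was larger than any difference between these means.

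Gzmk (granzyme K, found in memory CD8 T cells) was dim, well above background on 7 of 37 arrays. Those 7 arrays were 5 of 11 in HFC, 1 of 10 in LFC and 1 of 5 in HF20. Among those in HFC were Day 1 and Week 12, where 90.1% and 91.6% of all spots had the mark. The counts were 0 of 5 in HF5 and 0 of 6 in HF75. The spots of HF5 Week 12 and HF20 Week 15 had the mark but were dropped as outliers. At Week 3 and later, the only labels of the KAL-1 doses, Week 12 was the only HFC array with the mark. Prf1 (perforin) was well above background on 21 of 37 arrays with -7.34 (HF5 Week 15) as its lowest value and 1.25 (HF20 Week 15) as its highest. The HF20 Week 15 value comes from the array with most spots marked, and the highest value elsewhere was 0.04 at HFC Day 6.

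Nkg7, a granule membrane protein needed for the release of granules, was the steadiest of the set to measure, as each of its 38 values was well above background. The lowest was -3.65 (HF5 Week 15) and the highest 2.80 (HF20 Week 9), followed by 2.42 at HFC Day 6. HF20 Week 9 was the dimmest array, with a Nkg7 intensity before scaling of 126, against 2250 on HFC Week 12. Its second probe correlated with it at 0.74 over arrays without HF20 Week 15.

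Among the receptors, Klrd1 (CD94, the partner of NKG2 chains) was well above background on 32 of 38 arrays and ranged from -5.54 (HF75 Week 15) to 1.57 (HF20 Week 9). Its intensity before scaling was 53.8 on HF20 Week 9, the dimmest array, and 1060 on HFC Week 12. Klrb1c (NK1.1, the marker of natural killer cells in C57BL/6 mice) reached the mark on 22 of 38 arrays. These were 3 of 10 in LFC, 7 of 11 in HFC, 4 of 6 in HF5, 3 of 5 in HF20 and 5 of 6 in HF75. Its second probe was well above background on 4 arrays and was not tested. Ncr1 (NKp46, an activating receptor largely confined to natural killer and related innate lymphoid cells) reached it on 12 of 37 arrays. Most Ncr1 values are therefore near the floor of the array. The 12 were 7 of 11 in HFC, 4 of 10 in LFC and 1 of 5 in HF5, with none in HF20 or HF75. Among those in HFC were Day 1 and Week 12, where 90.1% and 91.6% of all spots had the mark. At Week 3 and later, the only labels of the KAL-1 doses, the HFC arrays with the mark were Week 6 and Week 12.

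Of the T-box factors, Tbx21 was well above background on 36 of 39 arrays, with a range of -3.56 (HF75 Week 15) to 2.34 (HF20 Week 15). Eomes reached the mark on 7 of 38 arrays, with 4 of 11 in HFC, 1 of 10 in LFC and 2 of 6 in HF5. Of those in HFC, only Week 12 lies at Week 3 or later. Day 1 and Week 12 of HFC, where 90.1% and 91.6% of all spots had the mark, were among them. Outside HF20 Week 15 the highest Tbx21 value was 0.59 at HFC Day 6, the array on which Gzma and Gzmb were also at their highest.

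**Figure D1:**
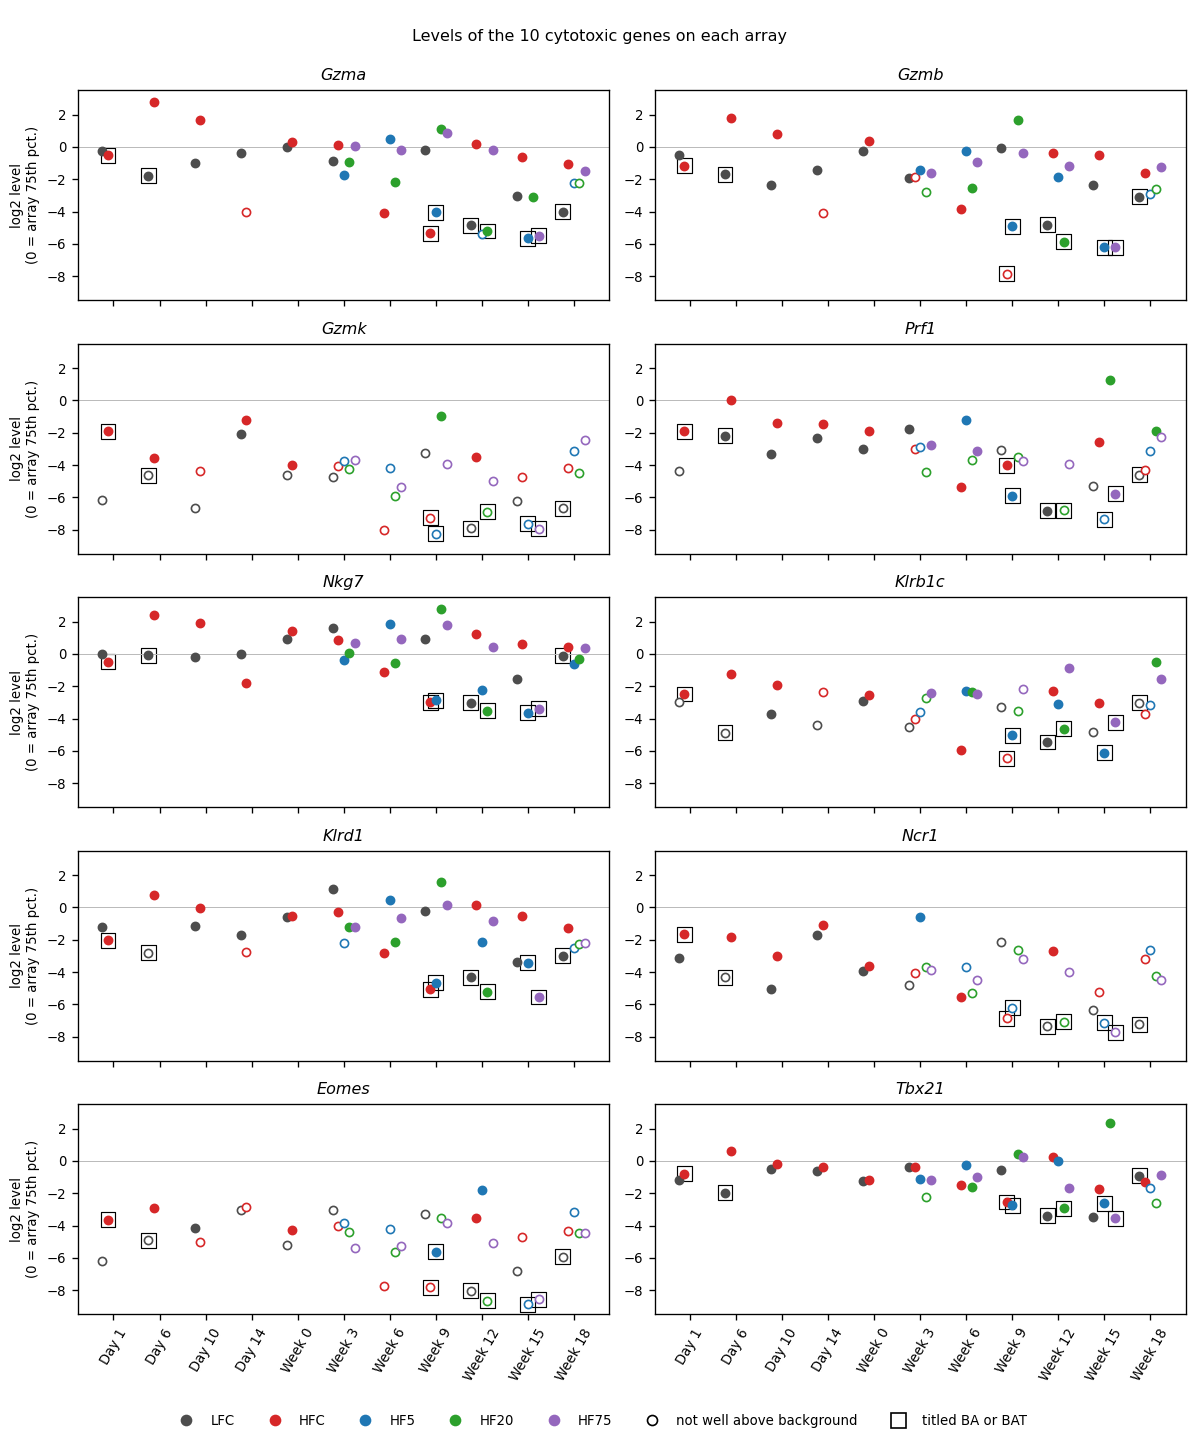
Log2 level of each of the 10 genes (y axis, 0 is the 75th percentile of the array) by time label (x axis), coloured by diet; open circles were not well above background and boxed points are arrays titled BA or BAT. Gzma, Gzmb and Tbx21 were highest in HFC at Day 6 among arrays other than HF20 Week 15, and most of the boxed points from Week 9 to Week 15 lie at the bottom of each panel.

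The first comparison asked whether the high fat diet changed these genes, with diet and time label in 1 limma fit over all 39 arrays. None of the 10 passed. Of all probes tested, 0% were called (0 of 34035, with 959 at an unadjusted p under 0.05). The 10 estimates for HFC minus LFC were all above 0, from 0.19 to 1.20 with a median of 0.66, where the median of all probes was 0.05. With normexp background correction 4 of the 10 were above 0, the median of the genes was -0.18 and that of all probes -0.27, so this direction depends on the background correction. It rests in part on Week 12, without which the median was 0.28 with 7 of 10 above 0. On the HFC array of that label 11.1% of spots were marked as outliers. Without Week 9 the median was 1.06. The largest estimates were 1.20 for Gzmk (SE 0.75) and 1.19 for Ncr1 (SE 0.68), both genes near background on most arrays. Gzmb, at 0.19, had a 95% interval of -1.82 to 2.21.

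Differences at single time labels were larger and went both ways. HFC was above LFC for all 10 genes at Day 6 (median 2.54), Week 0 (0.47) and Week 15 (1.98), and for all 9 with a value at Week 12 (4.44). At Week 9 the values of HFC were below those of LFC, but 4 genes (Gzmk, Klrb1c, Ncr1 and Eomes) were well above background on neither array, and the 75th percentiles were 918 and 24.1. Among genes well above background on both arrays, HFC was higher for 5 of 5 at Day 6, 8 of 8 at Week 0, 6 of 6 at Week 12 and 5 of 5 at Week 15, and lower for 4 of 4 at Week 9. At Day 6 and Week 12 the LFC array, and at Week 9 the HFC array, is one of those titled BA or BAT. At Week 0 and Week 15 neither array has that title. The HFC array of Week 12 had 11.1% of its spots marked as outliers. Without the 9 titled arrays the median over the genes was 0.53 and none was called. Day 14 and Week 0 are the same day by the count of the methods and are the only repeat. Week 0 minus Day 14 ran from -2.56 (Gzmk) to 1.43 (Klrb1c) in LFC and from -2.76 (Gzmk) to 4.43 (Gzmb) in HFC. The labels of the Day 14 arrays may be exchanged, and Gzma and Gzmb were not well above background on HFC Day 14, so these gaps are no measure of the error of a repeat.

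The arrays were scanned on 18 dates, each of which held 1 time label. At the 6 time labels where the LFC and HFC arrays shared a scan date, mean differences ran from 0.93 (Tbx21) to 2.12 (Ncr1). Gzmk and Ncr1 were higher in HFC at 6 of 6 of these labels, Prf1 at 5 of 5, and the other 7 genes at 5 of 6. Some of these differences rest on values at background. Neither array was well above it for Gzmk, Prf1, Klrb1c, Ncr1 and Eomes at Week 18 and for Gzmk, Ncr1 and Eomes at Week 15. The same held for Gzmk at Day 10 and for Klrb1c and Eomes at Day 14. The Week 18 difference of Ncr1 was 4.03, with 75th percentiles of 46.2 (HFC) and 310 (LFC). Day 14, whose labels may be exchanged, is 1 of these 6 labels. The LFC arrays of Week 12 and Week 18, 2 of these labels, are titled BA or BAT. Without Week 12 the means ran from 0.39 (Tbx21) to 1.62 (Ncr1), and at the 4 labels with no titled array from 0.45 (Gzma) to 1.65 (Prf1). The exact test exchanging diets within time labels, over all shared labels, gave two-sided p from 0.0703 (Prf1) to 0.752 (Gzmb), and over all probes 5.79% were under 0.05.

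The next comparisons asked whether a dose of KAL-1 changed the genes on the high fat diet. The 3 comparisons share the HFC arrays. None of the 10 genes passed against HFC for any dose. For each dose 0% of probes were called (0 of 34035), with 498 probes for HF5, 907 for HF20 and 1210 for HF75 at an unadjusted p under 0.05.

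The HF5 estimates had a median of -0.48 over the 10 genes, the HF20 estimates -0.28 and the HF75 estimates 0.21. Under normexp background correction they were -0.05, 0.32 and 0.52, and with quantile normalization -0.40, -0.24 and -0.04, so the HF20 median turned with normexp and the HF75 median with quantile normalization. Without the titled arrays the HF5 median was 0.47, so its direction rests on those arrays. Single labels also turned these medians, to 0.15 for HF5 without Week 15, to 0.51 for HF20 without Week 12, and to -0.50, -0.09 and -0.03 for HF75 without Week 9, Week 6 or Week 18. Gzma had -1.30 (95% interval -3.55 to 0.94) for HF5, -0.30 for HF20 and 0.72 for HF75.

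Klrb1c had the largest estimate, 1.59 for HF75 minus HFC (SE 0.69, 95% interval 0.18 to 3.00), with an unadjusted p of 0.0287 and a limma adjusted p of 1. The single differences were 1.60 at Week 3, 3.46 at Week 6, 4.31 at Week 9, 1.40 at Week 12, -1.21 at Week 15 and 2.19 at Week 18. Klrb1c was well above background on neither array at Week 9 and not on the HFC array at Week 3 and Week 18, so these 3 differences rest on values at background. At Week 9 the Klrb1c intensity before scaling was lower on the HF75 array than on the HFC array, and the 75th percentiles were 21.9 and 918. The HF75 value was higher at 5 of 6 labels, and the exact two-sided p was 0.0625, where the smallest the design allows is 0.0312. Only at Week 12 and Week 15 did both arrays share a scan date, and the mean there was 0.10. The HF75 array of Week 15 and the HFC array of Week 9 are titled BA or BAT.

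**Figure D2:**
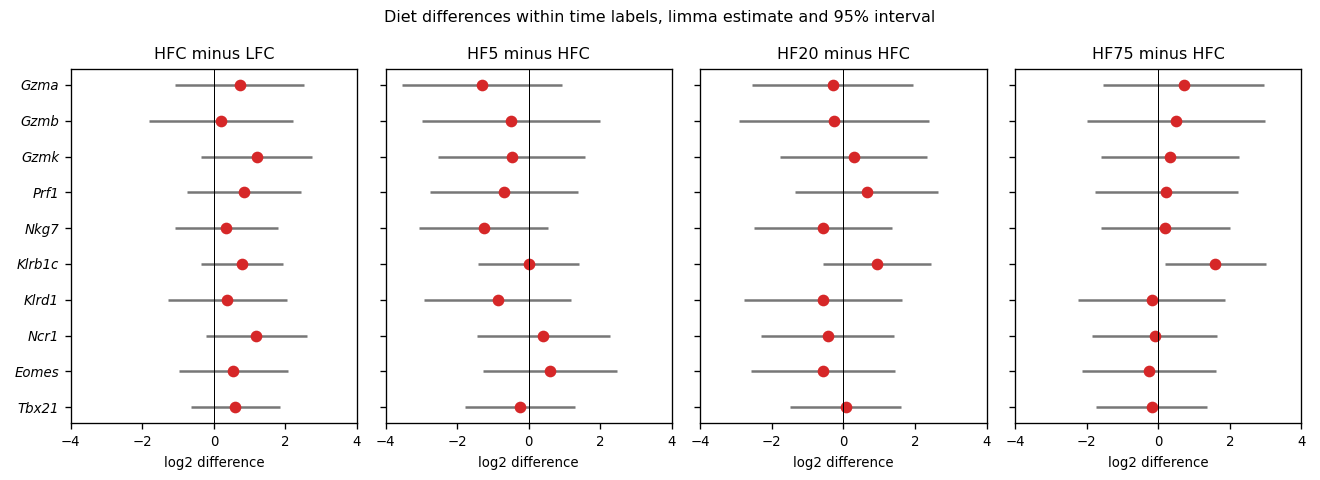
Difference in log2 level (x axis) of each gene for the 4 diet comparisons, as the limma estimate (point) with its 95% interval (line). All intervals but that of Klrb1c for HF75 minus HFC, 0.18 to 3.00, include 0.

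The change of the diet difference between early labels (Day 1 to Week 0) and late labels was tested as an interaction. None of the 10 genes passed, and 0% of 34035 probes were called (802 at an unadjusted p under 0.05). Estimates ran from -1.53 for Prf1 to 0.52 for Gzma, with a median of -0.31 that became 0.92 without Week 9.

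The trend over time was fitted over the LFC and HFC arrays as the change in log2 level for each doubling of days on diet. All 10 slopes were below 0, from -0.14 (Nkg7) to -0.48 (Ncr1), and each stayed below 0 in every alternative that tested it. Their size varied, from -0.61 without Day 1 to -0.21 with normexp for Ncr1, from -0.35 without Day 1 to -0.08 with normexp for Nkg7, and as near to 0 as -0.04 for Gzmk without the titled arrays and for Klrd1 and Eomes with quantile normalization. None passed after adjustment, and 0% of 34035 probes were called (4057 at an unadjusted p under 0.05). Ncr1 had the smallest unadjusted p, 0.00448, with a limma adjusted p of 0.24. The median slope of all probes was -0.05. Since each scan date held 1 time label, time and scan date cannot be told apart.

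The arrays titled BA or BAT were compared with the other arrays, with diet and time label in the fit. All 10 genes were lower on the titled arrays and passed limma, where 31.8% of all 34035 probes were called lower. In all, 17820 probes were called, 6986 higher and 10834 lower. The median of all probes was -0.30, and that of the 10 genes -2.67. The title therefore went with a broad difference between arrays, of which these genes are one portion.

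Gzmb had the largest difference, -3.99 (SE 0.63, limma adjusted p 0.000102), and Gzma had -3.25 (SE 0.63). The values of Gzmb on the 9 titled arrays ran from -7.84 to -1.16 with a median of -4.90, and on the 29 others from -4.07 to 1.79 with a median of -1.40. The groups overlapped, with HFC Day 1 the highest titled array. Klrd1 had -3.15, Ncr1 -2.87, Eomes -2.75, Nkg7 -2.59, Gzmk -2.37, Prf1 -1.94, Klrb1c -1.80 and Tbx21 -1.72. Gzmk and Ncr1 were well above background on 1 titled array each and Eomes on 2, so their values on the titled arrays lie mostly at the floor.

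**Figure D3:**
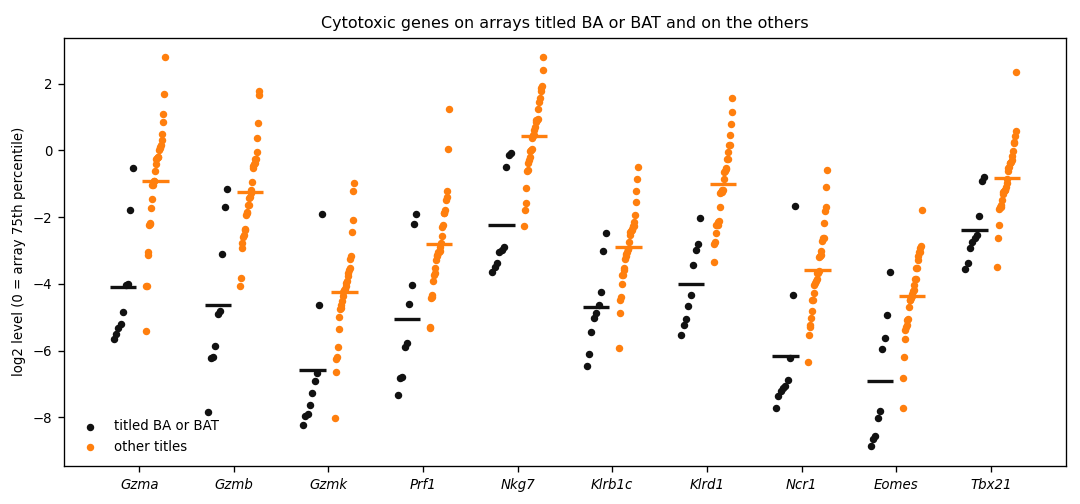
Log2 level (y axis, 0 is the 75th percentile of the array) of each gene on the 9 arrays titled BA or BAT (black) and the 30 others (orange), with each point 1 array, sorted within its group, and each bar the mean. The titled mean is the lower one for every gene, -4.64 against -1.25 for Gzmb, and the groups overlap.

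Array brightness moved with the title. The median 75th percentile was 852 intensity units on the titled arrays and 81.1 on the others, and 6 of the 9 titled arrays were above 700, as were 3 of the 30 others. With brightness as a covariate, a fit added after the data were seen, 2 of the 10 genes were still called (Gzma -2.45 and Tbx21 -2.51), and 3936 probes were called, 3310 of them higher. With quantile normalization 6 of 10 were called, and the probes called were 6942 higher of 10425, with a median over all probes of 0.18. All 10 estimates stayed below 0 in both, with Gzmk at -0.10 (limma adjusted p 0.958) under the covariate and at -0.49 (0.501) under quantile normalization. At the 3 time labels where titled and other arrays shared a scan date, 8 genes were lower at each, and Klrb1c and Tbx21 at 2. On the 3 bright untitled arrays Gzma was -4.07 (HFC Week 6, 75th percentile 748), 0.17 (HFC Week 12, 950) and -3.12 (HF20 Week 15, 3974).

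**Figure D4:**
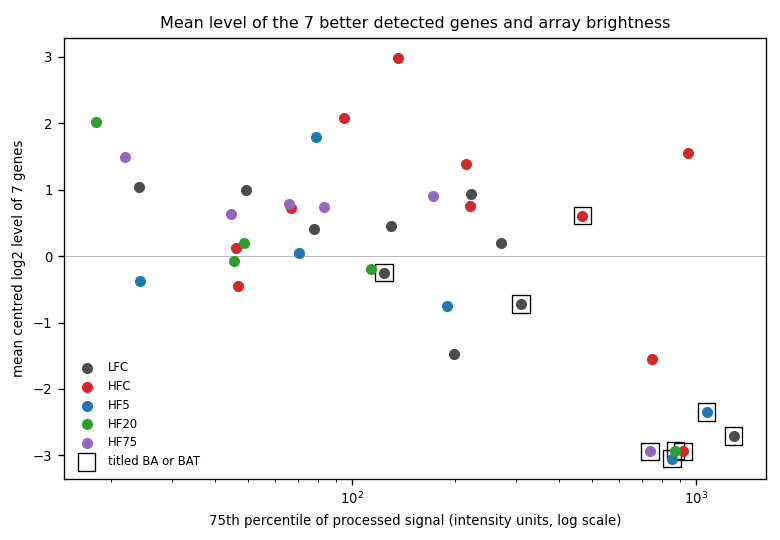
Mean centred log2 level of the 7 genes well above background on 20 or more arrays (y axis) against the 75th percentile of the array (x axis, intensity units, log scale) for 38 arrays, coloured by diet, with arrays titled BA or BAT boxed. The 6 lowest arrays, from -3.05 to -2.35, are all titled and bright, and HFC Day 6 is the highest at 2.99.

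Markers of other cells moved with the title too. Of the T cell list 9 of 12 genes were called lower on titled arrays and of the neutrophil list 8 of 8, with medians of -2.37 and -4.65. Of the B cell list 5 of 7 were called lower, of the erythroid list 5 of 5 and of the macrophage list 6 of 11, with a median of -1.04 for macrophages. The estimates of all 12 T cell, 7 B cell and 11 macrophage genes were below 0. Of the adipocyte list 6 of 8 were called higher and 1, Fabp4, lower, and of the brown adipocyte list 3 of 8 were called higher. Of the innate lymphoid list 3 of 6 were called lower and 1 higher, and of the mast cell list 5 of 7 lower and 1 higher. The fibroblast list had 4 of 6 called lower, the endothelial list 1 of 5 and the skeletal muscle list 0 of 5. Over all 34035 probes 31.8% were called lower and 6986 probes higher. The summed linear level of the T cell list was 1.80 to 6.18 on titled arrays and 2.90 to 29.1 on the others, and that of the adipocyte list 218 to 1250 and 117 to 2720. The part of these cells, and of brightness, in the result was not tested.

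Other genes of the cytotoxic pathway were read from a list of 53, of which 51 were on the array and 48 were tested. In the 4 diet comparisons, the interaction and the trend none of the 48 passed limma. On titled arrays 38 were called lower and 1 higher, with a list median of -2.50. Over all 34035 probes 31.8% were called lower and 6986 probes higher, with a median of -0.30. The largest falls among them were Ifng (interferon gamma) at -4.16, Klra7, an inhibitory Ly49 receptor, at -3.97, Il18rap, part of the interleukin 18 receptor, at -3.93, Txk, a T cell kinase, at -3.76, and Fasl, the ligand of the death receptor Fas, at -3.41. The gene that was higher was Il15ra, which presents interleukin 15 to natural killer cells, at 2.43. Il15 itself had -0.07 and Nfil3 0.36, and neither passed.

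The 10 genes varied together over arrays. Over 38 arrays, without HF20 Week 15, Pearson's r over the 45 pairs ran from 0.47 (Klrb1c with Tbx21) to 0.94 (Gzma with Nkg7), with a median of 0.68. Gzma, Gzmb, Nkg7 and Klrd1, chosen after their values were seen, had r of 0.88 to 0.94 among themselves. These arrays share scaling and brightness, and the mean of the 7 better detected genes had r = -0.63 with the log2 75th percentile, which is a description with no test.

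Without the titled arrays, over 29 arrays, the median r was 0.41, with a lowest value of 0.07 for Gzma with Eomes. Gzma, Gzmb, Nkg7 and Klrd1 then had r of 0.76 to 0.92. Gzmk with Eomes, both dim, had 0.83 over 38 arrays and 0.77 over 29. The mean of the genes had r = -0.17 with brightness over the 29 arrays.

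**Figure D5:**
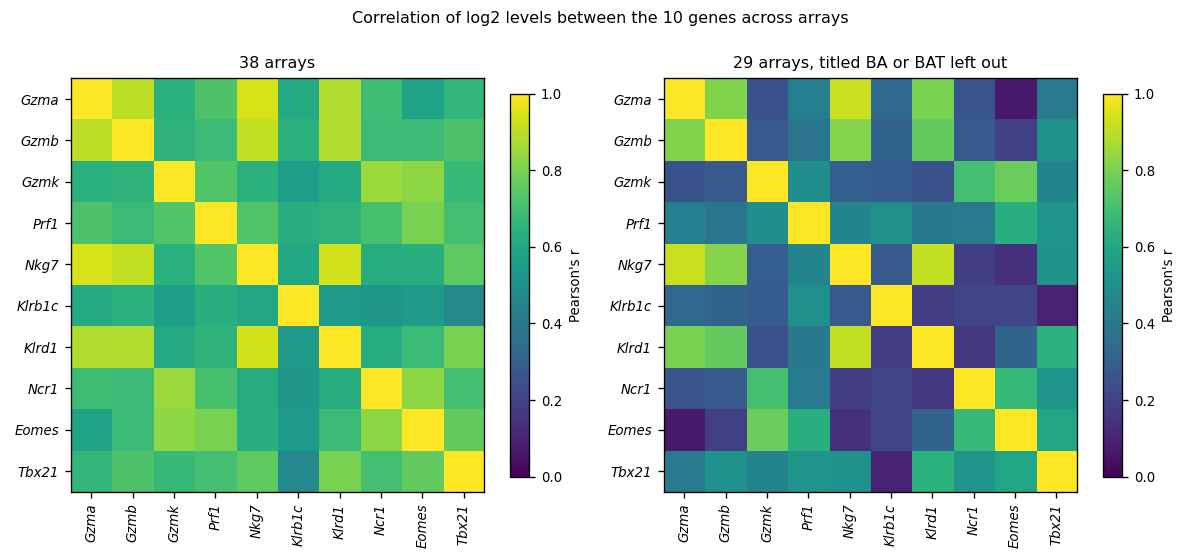
Pearson's r between the log2 levels of each pair of genes (colour) over 38 arrays (left) and over the 29 arrays not titled BA or BAT (right). The pairs of Gzma, Gzmb, Nkg7 and Klrd1 stay at 0.76 or above in both panels, and the pair of Gzma with Eomes goes from 0.58 to 0.07.

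Among 17183 other genes well above background on 20 or more arrays, those most alike to the mean of the 7 better detected genes were Ccl5 (0.94), a chemokine of activated T and natural killer cells, Ifng (0.93), a transcript named only ENSMUST00000103291 (0.93), Cd3d (0.93), a chain of the T cell receptor complex, and Cd6 (0.92). Spn, A430107D22Rik, Skap1, Ctsw and Klra7 had 0.91 each. Over the 29 untitled arrays these 10 genes had r from 0.75 (Skap1) to 0.91 (Spn). The list of T cell markers had r = 0.94 with the same mean, the B cell list 0.83, the neutrophil list 0.75 and the adipocyte list -0.64. Over the 29 untitled arrays these were 0.84, 0.60, 0.44 and -0.37.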

How the data were processed

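The 39 samples, RNA of brown fat stromal vascular cells, were each hybridised to a 1-colour Agilent mouse array. The deposited scanner output gives, per the file headers, the processed intensity of each spot, which Agilent Feature Extraction 10.5.1.1 (9.1 in the submitters' processing notes) had corrected for background but not scaled between arrays. A deposited table for the whole series gives log2 ratios to the LFC array of each time label, and served for gene names and as an alternative. Arrays have no read depth, and their number and signal over background limit the precision.

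The processed signal was taken as log2 minus the 75th percentile of the array, outlier-marked spots were dropped and spots of a probe were averaged. Each gene was read from its brightest probe. Probes well above background on at least 6 arrays were kept, which left 34035 probes of 24717 gene names. All 10 genes passed. Limma 3.58.1 in R 4.3.3 fitted diet and time label, with Benjamini-Hochberg adjustment over all probes and a threshold of 0.05. Exact tests exchanged diets within time labels. The code was tested on simulated data.

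All 10 genes were named, from the pathway list up to 5 of the largest that passed in each comparison, and the 10 genes most alike to the mean. Genes of the pathway list named beyond these were chosen after their values were seen. The members, the lists (12 cell types and 53 pathway genes) and the comparison of titles were chosen with earlier results of these data known. Time labels were a block. Residuals of LFC and HFC correlated above 0.1 at 5 of 10 shared labels, so not all labels pair. The design text speaks of 3 biological replicates, and here 1 array was found for each diet and time label. The HF20 Week 12 array was grouped by its title, while its diet field names the high fat diet alone. Figures used matplotlib 3.10.9, with Python 3.11.15, numpy 2.4.6 and pandas 2.3.3.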

Additional observations from a re-analysis of the deposited data

Results flagged for a closer look

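The HF75 Week 15 array, the only HF75 array titled BA or BAT, lay far below the other HF75 arrays for 5 of the genes. Gzma was -5.49 there with the next lowest HF75 array at -1.46, Gzmb was -6.21 with the next at -1.62, Nkg7 was -3.38 with the next at 0.38, Ncr1 was -7.73 with the next at -4.48, and Eomes was -8.57 with the next at -5.37. These 5 were all that stood out among 41 groups of 4 to 10 values tested. HFC, with 11 values for all genes but Prf1, was otherwise outside that limit. The 5 values come from 1 array and the genes vary together, so they are not separate events. Their number can therefore not be set against a rate of chance. Ncr1 and Eomes were not well above background on any HF75 array.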

How the results depend on the processing

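In the 4 diet comparisons none of the 10 genes was called under any of 34 alternatives each, nor in the interaction or the trend under 27 each. This includes the fit with no replicate block, in which time label was left out and 0 genes were called in each diet comparison, and the methods' t-test, with 0 genes at an unadjusted p under 0.05. The methods apply that test to treated and control values of 1 time point, and here, with 1 array for each diet and label, it was run over the arrays of a diet across time labels. Over all probes the highest counts were 24 for HFC against LFC and 172 for the trend, both with array weights. Leaving out each time label gave 0 genes in these 6 comparisons. For the titled arrays the count of genes called was 6 with quantile normalization and 2 with array brightness as a covariate, and 7 to 10 with a time label left out (7 without Week 9, 8 without Week 12 and 9 without Week 15). The share of called probes that were higher also moved, with 3310 of 3936 higher with the brightness covariate, 7729 of 28375 with normexp (median of all probes -1.30) and 6942 of 10425 with quantile normalization, against 6986 of 17820. The median SD of the genes over arrays was 1.82, and it was 1.46 with quantile normalization and 1.31 with normexp. The median r between genes was 0.68 and 0.41 without the titled arrays. A slide as a random block had a correlation of 0 where each slide held 1 array of the fit. At Day 14 the series table holds zeros in the column named HFC, so those 2 labels may be exchanged, and with them exchanged no gene was called in the diet comparisons. Signal over background limits Gzmk, Ncr1 and Eomes most, which were well above it on 7, 12 and 7 arrays. The cause of the changes between settings was not tested.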
